A study of Mus musculus with 6 samples.

Results

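The genes described here code for 8 receptors of the immunoglobulin superfamily on myeloid cells: *Cd300a*, *Cd300lf*, *Cd300ld* and *Cd300lb* of the CD300 family, the signal regulatory protein gene *Sirpa*, the paired immunoglobulin-like receptor gene *Pirb*, and the sialic acid-binding lectin genes *Siglece* and *Siglec1*. They were chosen by symbol, and all 8 were among the 15903 of 57010 genes in the count table whose counts summed to 10 or more. RNA was sequenced from bone marrow-derived macrophages (BMDMs), which are macrophages grown from marrow with the growth factor M-CSF, here at 10 ng/ml for 7 days. The marrow came from 3 Cx3cr1GFP mice of C57BL/6J background, whose *Cx3cr1* locus carries a GFP sequence, and both groups share this allele. Each mouse gave an unstimulated culture (control, n = 3) and a culture kept for 24 h in 62 mM excess NaCl (NaCl, n = 3), and adherent cells were collected, so cells that had detached were not measured.

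Macrophages balance uptake and activation through pairs of receptors that read similar ligands and signal in opposite directions. Inhibitory members carry tyrosine motifs in their cytoplasmic tail that recruit the phosphatases SHP-1 and SHP-2, whereas activating members lack these motifs and signal through small adaptors such as DAP12 or the Fc receptor gamma chain. Several CD300 receptors bind lipids such as phosphatidylserine that dying cells expose, SIRPα binds the "do not eat me" protein CD47, PIR-B binds MHC class I molecules, and Siglecs bind sialic acids on glycans.

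The CD300 genes are neighbours in a cluster on chromosome 11. RefSeq promoter sequences, from 250 bases before to 50 bases after the annotated start, were found for 6 of the 8 genes. Those of 3 CD300 genes on the minus strand are shown, because *Cd300lf* was lower and *Cd300lb* higher in every NaCl library than in every control library, whereas the groups overlapped for *Cd300ld*. The positions are RefSeq's on GRCm38.p6, at chr11:115133943-115134242 for *Cd300lf*, chr11:114934322-114934621 for *Cd300lb* and chr11:114989837-114990136 for *Cd300ld*. Capitals mark matches on either strand to the ETS/PU.1 core GAGGAAGT, to TGGAAA, the start of the element bound by the osmotic stress factor NFAT5, and to the TATA box TATAAA.
Cd300lf: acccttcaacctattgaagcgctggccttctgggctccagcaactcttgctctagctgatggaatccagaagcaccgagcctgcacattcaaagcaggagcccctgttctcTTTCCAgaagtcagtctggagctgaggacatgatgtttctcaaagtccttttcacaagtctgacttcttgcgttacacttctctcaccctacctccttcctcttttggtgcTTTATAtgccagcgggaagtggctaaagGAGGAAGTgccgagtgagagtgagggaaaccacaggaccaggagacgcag
Cd300lb: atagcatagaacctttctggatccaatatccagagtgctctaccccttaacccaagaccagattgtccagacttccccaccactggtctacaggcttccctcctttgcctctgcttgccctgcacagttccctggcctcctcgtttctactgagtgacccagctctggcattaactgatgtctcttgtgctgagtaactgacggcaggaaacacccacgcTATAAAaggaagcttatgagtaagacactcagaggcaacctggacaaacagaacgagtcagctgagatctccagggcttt
Cd300ld: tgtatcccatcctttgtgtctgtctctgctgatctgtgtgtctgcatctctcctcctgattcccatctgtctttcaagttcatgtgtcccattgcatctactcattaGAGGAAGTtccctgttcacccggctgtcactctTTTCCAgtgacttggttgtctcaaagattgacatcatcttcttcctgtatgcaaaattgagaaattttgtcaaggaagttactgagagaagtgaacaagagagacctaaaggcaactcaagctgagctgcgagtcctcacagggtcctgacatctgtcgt

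GAGGAAGT stood in the windows of *Cd300lf*, *Cd300ld* and *Pirb*, which is 3 of 6 members against 3.2% of all 32851 promoters. It began at the annotated start in *Cd300lf*, and 143 and 120 bases before it in *Cd300ld* and *Pirb*. TGGAAA was found in *Cd300lf*, *Cd300ld* and *Cd300a*, each time on the opposite strand, and in 21.4% of all promoters. These letters are only the start of the NFAT5 element, and the rest of it was not searched for. TATAAA was found 30 bases before the start of *Cd300lb* and, on the opposite strand, 28 bases before that of *Cd300lf*, and in 13.6% of all promoters. None of these letters was in the window of *Siglece*. The motifs were picked after the sequences had been read, and a match describes letters, not binding.

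The depth behind the values was uneven. The total counts ranged from 8520433 to 20123570 in the control libraries and from 4088065 to 11610020 in the NaCl libraries, and NaCl replicate 3 was the shallowest. Levels are given as CPM, the reads of a gene scaled to a common library size with TMM factors, which even out differences in RNA composition. Of 8 macrophage markers all 8 were tested, and they summed to between 15012 and 16353 CPM in control libraries and to between 23394 and 30923 CPM in NaCl libraries. Most of this difference was *Lyz2*, with 9817 ± 524 CPM in control and 19148 ± 3609 CPM in NaCl, while 5 of the 8 markers had a log2 fold change below 0 and the median was -0.06. With the mouse as a term in the fit, *Lyz2* and *Csf1r* were higher and *Mertk* was lower, and the part of these differences in the receptor values was not tested. Neutrophil markers summed to 184 to 386 CPM in control and 201 to 318 CPM in NaCl, and dendritic cell markers to 103 to 155 CPM and 76.4 to 127 CPM. None of the 4 erythroid and none of the 4 T and NK cell markers reached a total count of 10. In bulk RNA, fewer cells of a type and less RNA per cell cannot be told apart.

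Set against exon length, the order of the control levels was *Sirpa*, *Cd300lb*, *Cd300ld*, *Cd300a*, *Pirb*, *Siglec1*, *Cd300lf* and *Siglece*. *Sirpa* had 489 ± 23.8 CPM per kb of exon (SD, n = 3), *Cd300lb* 117 ± 18.5 and *Cd300ld* 103 ± 10.6. *Cd300a*, *Pirb* and *Siglec1* followed with 51.3 ± 7.47, 49.6 ± 15.1 and 41.3 ± 10.8 CPM per kb. *Cd300lf* had 2.48 ± 0.716 and *Siglece* 1.17 ± 0.163 CPM per kb. The ranges of neighbours in this order overlapped between *Cd300lb* and *Cd300ld*, between *Cd300a* and *Pirb* and between *Pirb* and *Siglec1*, and the other neighbours were apart. The set thus held 1 very abundant gene, 5 of middle level and 2 close to the low end. Without division by length, *Siglec1*, the gene with the longest exons at 7143 bases, took rank 3.

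To ask whether excess salt changes these receptors, the libraries were compared with edgeR's quasi-likelihood test, adjusted by the Benjamini-Hochberg method over all 15903 genes. *Cd300lf*, an inhibitory CD300 receptor, had a level in NaCl of 0.465 times that in control and was lower in the samples of all 3 mice. It passed edgeR's test with the mouse as a term but not without it, and it passed by DESeq2 with and without that term. *Cd300lb*, an activating member, had a fold of 1.28 and passed in neither fit, and the log2 fold changes of the other 6 lay between -0.20 and -0.08. At an adjusted p of 0.05, 0 of the 8 passed the test without the mouse as a term, where 0.478% of all genes were called higher and 0.176% lower. At an unadjusted p under 0.05 there were 2 of 8, *Cd300lf* and *Cd300lb*, where 12.6% of all genes were. With the mouse as replicate block, 1 of 8 passed, *Cd300lf*, which fell, against 4.60% of all genes called higher and 4.30% lower. By DESeq2 without the block the count was also 1, *Cd300lf*, with a background of 1.54% higher and 0.975% lower. The median log2 fold change of the 8 was -0.13, beside -0.01 for all genes tested. Of the 8 values, 7 lay below 0, as did 8083 of the 15903 genes tested. Those of *Cd300a*, *Cd300ld*, *Pirb*, *Siglece* and *Siglec1* turned above 0 in some fits that left out a library.

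**Figure D1:**
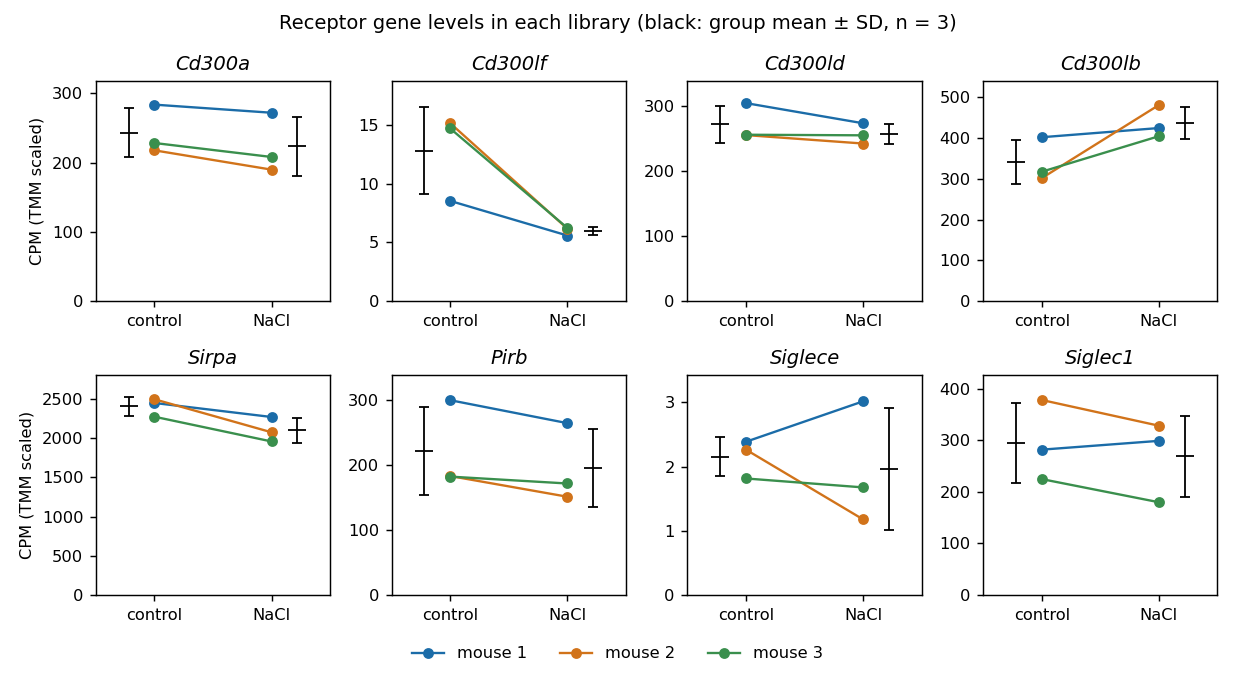
Level of each receptor gene in the 6 libraries, in CPM on a linear axis that starts at 0, with a line for each mouse from control to NaCl and black bars for the group mean ± SD (n = 3). *Cd300lf* lay at 8.53 to 15.1 CPM in control and at 5.59 to 6.23 CPM in NaCl, whereas for *Pirb* the line of mouse 1 stays above those of mice 2 and 3 by more than control differs from NaCl.

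The CD300 genes were examined first, beginning with the inhibitory members. *Cd300lf* codes for CLM-1, which binds phosphatidylserine. Its level was 8.53, 15.1 and 14.7 CPM in the control libraries of mice 1, 2 and 3, and 5.59, 6.16 and 6.23 CPM in the NaCl libraries. These values rest on raw counts of 75, 167 and 291 in control and of 50, 68 and 26 in NaCl. The groups did not overlap, and the 3 NaCl libraries lay close together while control replicate 1 was well under the other two. Without the block its log2 fold change was -1.11 ± 0.25 (SE, n = 3 per group), a fold of 0.465 with a 95% interval from 0.316 to 0.683, and the adjusted p from edgeR was 0.094. With the replicate block it was -1.06 ± 0.19 with an adjusted p from edgeR of 0.00059, and DESeq2 without the block gave an adjusted p of 0.011. Within mice 1, 2 and 3, NaCl differed from control by -0.59, -1.27 and -1.21 on the log2 scale. Without control replicate 1 the log2 fold change was -1.31 and the adjusted p from edgeR was 0.029, and in the other 5 fits that left out a library the adjusted p was 0.116 to 0.465. The text of the paper does not name *Cd300lf*. Its changed genes came from these same libraries, so the direction of *Cd300lf* here is not independent evidence.

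*Cd300a* codes for an inhibitory receptor for phosphatidylserine and phosphatidylethanolamine. It had 284, 218 and 228 CPM in control and 272, 190 and 208 CPM in NaCl libraries of mice 1, 2 and 3. The groups overlapped, with mouse 1 highest in both. The difference within each mouse was small and negative, from -0.06 to -0.20 on the log2 scale. Its log2 fold change without the block was -0.12 ± 0.17 (adjusted p = 0.816 by edgeR), and the 95% interval of the fold was 0.708 to 1.19. With the block it was -0.13 ± 0.11 (adjusted p = 0.567 by edgeR).

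Of the activating members, *Cd300lb* codes for CLM-7, which signals with DAP12. Its level was 401, 301 and 317 CPM in control and 424, 480 and 404 CPM in NaCl. All NaCl libraries lay above all control libraries, although control replicate 1 came close to NaCl replicate 3. The log2 ratio within the mouse was 0.08, 0.67 and 0.35 for mice 1, 2 and 3. The fit gave a log2 fold change of 0.36 ± 0.15, a fold of 1.28 with a 95% interval from 1.02 to 1.61, with an adjusted p from edgeR of 0.354. With the replicate block the adjusted p from edgeR was 0.064, so the difference passed in neither fit.

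*Cd300ld* codes for CLM-5, which associates with the Fc receptor gamma chain. It had 304, 255 and 256 CPM in control and 273, 242 and 255 CPM in NaCl, and the groups overlapped. Its log2 fold change of -0.08 ± 0.13 came with a 95% interval of the fold from 0.775 to 1.15 (adjusted p = 0.847 by edgeR). A change of 1.5 times in either direction lay outside this interval, and in mouse 3 control and NaCl differed by -0.01 on the log2 scale. These fit values are without the block, which gave a log2 fold change of -0.08 ± 0.11 (adjusted p = 0.760 by edgeR).

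**Figure D2:**
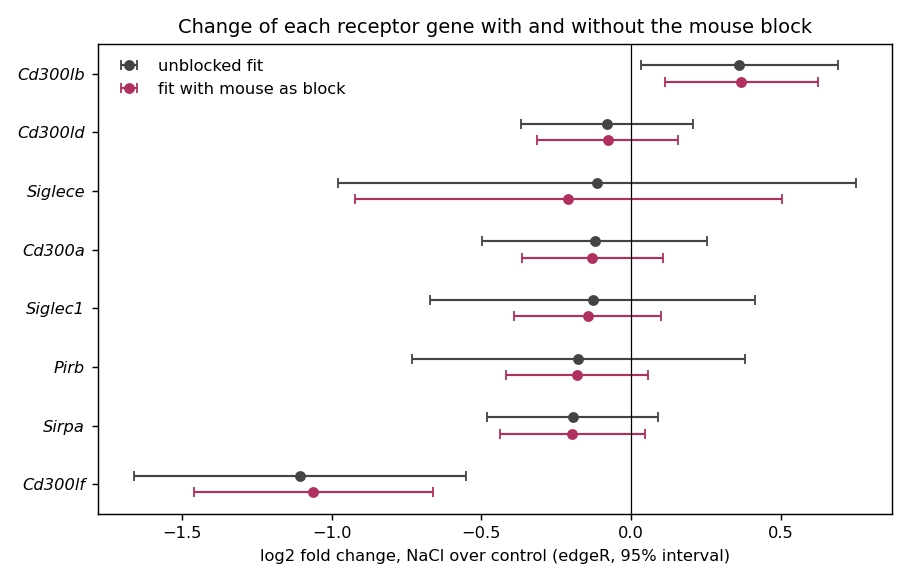
Log2 fold change of NaCl over control for the 8 genes, with 95% intervals from edgeR without a block (grey) and with the mouse as block (red). The interval of *Cd300lf* lies below 0 and that of *Cd300lb* above 0 in both fits, and the block narrows the interval of *Pirb* from -0.73 to 0.38 without it to -0.42 to 0.05.

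Because these genes belong to a single cluster, their counts were also set against all CD300 family counts of the same library, 12 genes in all. *Cd300lb* held 30.3%, 28.6% and 29.5% of them in control and 32.1%, 36.8% and 34.3% in NaCl. *Cd300lf* held 0.644%, 1.43% and 1.36% in control and 0.423%, 0.472% and 0.529% in NaCl. The groups did not overlap for either gene, *Cd300lb* being higher and *Cd300lf* lower. The rise was not particular to *Cd300lb*, as the share of *Cd300c2* was also higher without overlap, at 20.5 ± 0.513% in control and 23.3 ± 2.21% in NaCl. With the block, *Cd300c2* had a log2 fold change of 0.33 (adjusted p = 0.092 by edgeR). The share of *Cd300c*, a gene with counts of 1 to 10, was lower without overlap. *Cd300ld* went from 23.6 ± 0.622% to 20.3 ± 1.59% and *Cd300a* from 21.1 ± 0.400% to 17.6 ± 3.03% (mean ± SD, n = 3), also without overlap. Shares of a whole move against each other, and the summed level of the family ranged from 1055 to 1325 CPM in control and from 1177 to 1320 CPM in NaCl. There were 47.1, 19.9 and 21.6 CPM of *Cd300lb* for each CPM of *Cd300lf* in control, and 75.9, 77.9 and 64.8 in NaCl. This ratio was higher in NaCl in every mouse, and the difference between the changes of these genes was not tested.

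**Figure D3:**
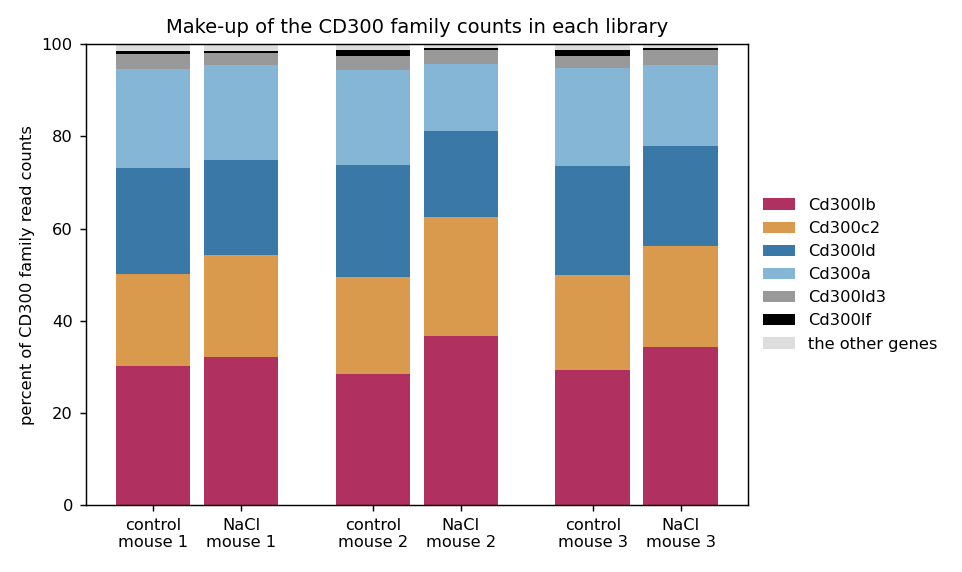
Share of the summed raw counts of 12 CD300 family genes held by each gene, in percent, in the control and NaCl library of each mouse. *Cd300lb* (red) takes 28.6% to 30.3% in control and 32.1% to 36.8% in NaCl, and *Cd300lf* (black) is a thin band that is thinner in NaCl.

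*Sirpa*, on chromosome 2, codes for the inhibitory receptor of CD47. It had 2445, 2492 and 2270 CPM in control and 2266, 2071 and 1955 CPM in NaCl. All NaCl libraries were below all control libraries, although control replicate 3 and NaCl replicate 1 nearly touched. A log2 fold change of -0.20 ± 0.13 was estimated without the block (adjusted p = 0.585 by edgeR), and the 95% interval of the fold ran from 0.716 to 1.06. The block gave -0.20 ± 0.12 (adjusted p = 0.355 by edgeR). *Cd300lf* and *Sirpa* were thus 2 of 8 with all NaCl libraries below control, where 10.1% of all genes had this pattern, and *Cd300lb* was 1 of 8 with all above, where 8.92% had it. *Cd47* itself was lower in 2 mice and higher in 1, with a log2 fold change of -0.07 ± 0.21 (adjusted p = 0.936 by edgeR).

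*Pirb*, on chromosome 7, codes for an inhibitory receptor for MHC class I that also binds ANGPTL2. Its level was 300.0, 183 and 182 CPM in control and 265, 151 and 172 CPM in NaCl. Mouse 1 was highest in both groups, and mouse 1 differed from the other mice by more than control from NaCl. It had a log2 fold change of -0.18 ± 0.25 without and -0.18 ± 0.12 with the replicate block, with adjusted p-values from edgeR of 0.821 and 0.389. The libraries of mouse 1 were also highest in 4 monocyte markers summed, with 222 CPM in its control and 270 CPM in its NaCl library against 44.8 to 109 CPM in the other libraries, most of it *Ccr2*. The part of these cells in the level of *Pirb* was not tested. Of the 75-base windows in *Pirb* exons, 26.9% also occurred in other genes, most often in *Gm14548*, so its counts depend on how shared reads were treated.

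Of the Siglecs, *Siglece* codes for an inhibitory receptor and *Siglec1* for sialoadhesin, an adhesion receptor without inhibitory motifs that interferon induces. *Siglece* had 2.39, 2.26 and 1.82 CPM in control and 3.02, 1.18 and 1.68 CPM in NaCl, which were raw counts of 21, 25 and 36 and of 27, 13 and 7. It was higher with NaCl in mouse 1 and lower in mice 2 and 3, and at this depth a fold from 0.508 to 1.68 lay within the 95% interval. Its log2 fold change was -0.11 ± 0.39 without the block (adjusted p = 0.938 by edgeR) and -0.21 ± 0.35 with it (adjusted p = 0.794 by edgeR).

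*Siglec1* had 282, 378 and 225 CPM in control and 299, 328 and 180 CPM in NaCl. The mice kept their order, with mouse 2 highest and mouse 3 lowest in both groups, and the groups overlapped. The log2 fold change without the block was -0.13 ± 0.24 (adjusted p = 0.876 by edgeR), with a 95% interval of the fold from 0.628 to 1.33. With the block it was -0.15 ± 0.12 (adjusted p = 0.533 by edgeR). Among 12 interferon response genes, 0 passed by edgeR without the block, where 0.478% of all genes were called higher. By DESeq2 without the block 2 passed, *Ifit1* and *Usp18*, against 1.54% of all genes called higher. By edgeR with the block 4 passed, against 4.60% of all genes called higher. These were *Ifit1*, *Ifit2*, *Ifit3* and *Usp18*, which rose by 1.05, 0.75, 0.93 and 0.96 on the log2 scale, and the median of the 12 without the block was 0.49. *Siglec1* was not among the genes that rose, and its 95% interval with the block reached 0.10 on the log2 scale.

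Further genes of the same families or gene clusters were then read as a list of 29 relatives, of which 26 were tested. Without the block, 0 were called higher and 1 lower, against 0.478% and 0.176% of all genes. With the block, 2 were higher and 2 lower, against 4.60% and 4.30% of all genes. *Lilrb4b*, which codes for gp49A, had 1311, 1333 and 1171 CPM in control and 756, 568 and 734 CPM in NaCl. Its log2 fold change was -0.89 ± 0.15 (adjusted p = 0.038 by edgeR), and the adjusted p was 2.3e-05 both by edgeR with the block and by DESeq2 without it. *Lilrb4a*, which codes for the inhibitory receptor gp49B, went from between 513 and 569 CPM to between 271 and 393 CPM, a log2 fold change of -0.66 ± 0.16 with an adjusted p from edgeR of 0.113 without and 0.00063 with the replicate block. Both are on chromosome 10, where 40.3% of the windows of *Lilrb4a* and 15% of those of *Lilrb4b* occur in other genes, *Gm49339* included. The counts of both thus depend on how shared reads were treated. The call of *Lilrb4b* was lost in 5 of the 6 fits that left out a library, with adjusted p-values from 0.065 to 0.297 by edgeR and log2 fold changes from -0.94 to -0.76, and was kept without NaCl replicate 1.

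*Siglecf*, a receptor known from eosinophils and alveolar macrophages, rose with the replicate block by 0.72 on the log2 scale (adjusted p = 0.00058 by edgeR) and was higher in each NaCl library than in the control of the same mouse. Its levels were 11.7, 24.6 and 40.8 CPM in control and 20.2, 41.2 and 64.2 CPM in NaCl. The eosinophil marker *Epx* was at 0.544 to 1.68 CPM in all libraries, and *Prg2* had a log2 fold change of -0.86 with the block, with an adjusted p of 0.0076 by edgeR and of 0.061 by DESeq2. *Mag*, the Siglec of myelin, ranged from 1.54 to 1.66 CPM without and from 2.99 to 4.55 CPM with NaCl, and passed by edgeR with the block (adjusted p = 0.0087) but not by DESeq2 with the block (adjusted p = 0.097). The median log2 fold change of the 26 relatives was -0.18.

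**Figure D4:**
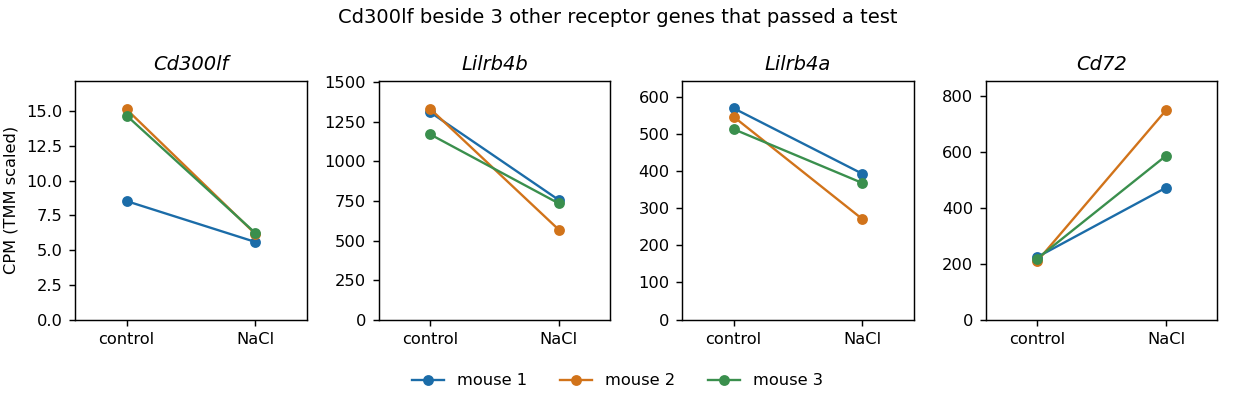
Level in CPM, on linear axes that start at 0, of *Cd300lf*, *Lilrb4b*, *Lilrb4a* and *Cd72* in the control and NaCl library of each mouse. The first 3 were lower in every NaCl library, and *Cd72* rose from 209 to 223 CPM to 471 to 748 CPM.

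Of 7 partners and ligands, 0 passed without the block, and with it 1 rose and 2 fell, against 4.60% of all genes called higher and 4.30% lower. *Spn*, which codes for CD43, a sialylated counter-receptor of sialoadhesin, rose by 0.94 on the log2 scale with the block (adjusted p = 2.4e-05 by edgeR). *Thbs1*, which codes for a ligand of CD47, fell by 1.12 (adjusted p = 1.6e-06) and *Angptl2*, a ligand of PIR-B, fell by 0.39 (adjusted p = 0.035), both by edgeR with the block. For *Angptl2*, DESeq2 with the block gave an adjusted p of 0.065. The adaptors *Tyrobp* (DAP12), *Fcer1g* (Fc receptor gamma chain) and *Hcst* (DAP10) passed in neither fit. Their log2 fold changes were -0.14, -0.17 and -0.01, and the median of the 7 was -0.14.

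Of 15 signalling genes, 0 passed without the block and 1 with it, *Pik3ap1*, an adaptor for phosphoinositide 3-kinase, which fell by 0.44 on the log2 scale (adjusted p = 0.014 by edgeR), against 4.30% of all genes called lower. The phosphatase genes *Ptpn6* (SHP-1) and *Ptpn11* (SHP-2), which inhibitory members recruit, had log2 fold changes of 0.15 ± 0.13 and -0.06 ± 0.12. Of 19 sialic acid genes tested, 0 passed without the block and 1 with it, *Cmah*, the hydroxylase that makes the glycolyl form of sialic acid, which fell by 1.34 (adjusted p = 0.0087 by edgeR) at 0.958 to 6.82 CPM. DESeq2 with the block gave *Cmah* an adjusted p of 0.131, and 1 of 15 and 1 of 19 are near the share of all genes that the block called. The medians of these lists were -0.10 and 0.08.

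A last list held 11 tested receptors that are inhibitory, except for *Pilrb1*, the activating partner of *Pilra*. Without the block 1 of them rose, against 0.478% of all genes, *Cd72*, a receptor with an inhibitory motif known from B cells and also found on macrophages. It had 223, 209 and 218 CPM in control and 471, 748 and 585 CPM in NaCl, and its log2 fold change was 1.47 ± 0.17 (adjusted p = 0.0077 by edgeR, and 2.9e-08 with the block). The call was lost without control replicate 2, control replicate 3 or NaCl replicate 3, with adjusted p-values of 0.091, 0.074 and 0.063 by edgeR and log2 fold changes of 1.46, 1.49 and 1.49. With the block, 1 of the 11 fell, *Pilra*, by 0.85 on the log2 scale (adjusted p = 0.0012 by edgeR), against 4.30% of all genes called lower. Among those that passed, 1 gene thus rose and 1 fell, and the median of the 11 was -0.13.

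The pattern of each member over the 6 libraries was also matched to the genes with a mean of at least 5 CPM. The nearest gene to *Cd300lf* was *Aldh18a1*, an enzyme of proline synthesis, with a root-mean-square difference of 0.10 on the log2 scale after centring, where *Cd300lf* itself varied by 0.58. *Aldh18a1* had a log2 fold change of -0.92. The nearest to *Cd300lb* was *Kif3c* (0.05), to *Sirpa* *Thoc7* (0.03), to *Cd300a* *Sdr42e1* (0.02), to *Cd300ld* *Rbbp9* (0.02), to *Pirb* *Tob1* (0.05), to *Siglece* *Slfn5* (0.11) and to *Siglec1* *Mafk* (0.10). With 9834 genes searched over 6 libraries close matches are common, and these are descriptions of likeness.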

How the data were processed

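Single-end reads of 75 bp were trimmed (fastp 0.20.0) and aligned (STAR 2.7.10b) by the authors, who deposited raw counts per gene made without strand information. They also deposited a normalized signal, which equals the counts divided by a DESeq2 size factor per library and was used here for symbols only. The methods name mm10 with an annotation of another build, so positions from the files are given by chromosome. CPM were computed with edgeR 4.0.16 and TMM scaling, and log2 values with a prior count of 2. Main test: glmQLFTest on the 15903 genes whose counts sum to 10 or more, without further term, after the study's design. This test leaves the pairing by mouse out, and the fit with the replicate block takes it in. Exon length and shared 75-base windows came from GENCODE M21, in which 97.4% of the genes tested were found. The mouse numbers pair the samples by label, and same-mouse deviations correlated at 0.43, 0.15 and 0.22 across genes, others at -0.35 to 0.12.

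Alternatives were the replicate block, DESeq2 1.42.0 with and without it, median-ratio size factors, scaling by total counts, a count minimum of 1, filterByExpr, limma-voom (limma 3.58.1), each library left out and each mouse left out of the block fit. Genes named are the 8 members, other listed genes past the threshold without or with the block, and the nearest gene by pattern. Genes named outside this rule were chosen after their values were seen. Members, lists and rules were chosen with earlier results of these data known. Scripts were tested on simulated data. R 4.3.3, Python 3.11.15 and pandas 2.3.3 were used. Intervals give the uncertainty of the fitted difference between NaCl and control, not the spread between mice, and rest on 3 mice.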

Additional observations from a re-analysis of the deposited data

How the results depend on the processing

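The count of receptor genes called lower was 0 in the main edgeR test without the block. It was 1, *Cd300lf*, with the replicate block, with DESeq2, with DESeq2 and the block, and with a minimum total count of 1. It was also 1 in each of the 3 block fits that left out mouse 1, 2 or 3, and 0 to 1 when a single library was left out. The share of all genes called was taken only for the main test, edgeR with the block and DESeq2 without it. Counts from the other fits thus have no background beside them. The change of the count minimum alone took the adjusted p of *Cd300lf* by edgeR from 0.094 to 0.00052. The log2 fold change of *Cd300lf* stayed negative in all 17 alternatives, from -1.31 to -0.90, with adjusted p-values from 0.00013 to 0.465. With the replicate block, 4 of 26 family relatives, 3 of 7 partners and ligands and 1 of 15 signalling genes passed. So did 1 of 19 sialic acid genes, 2 of 11 other inhibitory receptors and 4 of 12 interferon genes. That fit called 4.60% of all genes higher and 4.30% lower. By DESeq2 without the block, 2 relatives, 2 interferon genes and 1 other inhibitory receptor passed. There, 1.54% of all genes were called higher and 0.975% lower. Leaving out single libraries gave 0 to 1 relatives and 0 to 1 other inhibitory receptors. The block changed no other call among the members, and no alternative called a member higher.

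The direction of 5 genes that passed nowhere turned when a library was left out. Log2 fold changes ranged over these fits from -0.29 to 0.0070 for *Cd300a*, from -0.13 to 0.012 for *Cd300ld*, from -0.46 to 0.11 for *Pirb*, from -0.64 to 0.23 for *Siglece* and from -0.29 to 0.10 for *Siglec1*. In the block fit without mouse 2, *Siglece* was at 0.18. The shares of CD300 counts in control were 30.4% for *Cd300lb*, 24.4% for *Cd300ld* and 21.8% for *Cd300a* when 4 genes with shared windows were left out. Counts of 7 to 36 for *Siglece* and 26 for *Cd300lf* in NaCl replicate 3 limit both genes.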
